A study of Mus musculus with 4 samples.

Results

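The Iroquois genes Irx1 to Irx6 were examined for accessible chromatin in the mouse limb bud. The members were the 6 genes themselves, and their regions were all peaks overlapping a window of 250 kb on either side of each transcription start site in mm10, counted by gene cluster. On the autosomes and sex chromosomes, this gave 181 of 99356 E10.5 regions and 47 of 37413 E11.5 regions. The windows were fixed by distance alone, and no accessibility value entered the choice of regions within them. The 6 genes were chosen with earlier results of these data known.

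The data come from ATAC-seq, in which the Tn5 transposase inserts sequencing adaptors where DNA is open, on cells from the forelimbs and hindlimbs of mouse embryos of wild-type genotype. There are 4 samples, 2 replicates for each of the stages titled E10.5 and E11.5 after the embryonic day, although the protocol calls the earlier stage E10. No treatment or engineered allele is named for these samples, and the series as a whole concerns the control of En1 in the limb. Each stage is represented by 1 peak list named for both of its replicates, so neither values per replicate nor depths are known, the stages could not be tested against each other, and every difference below is between these lists.

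Iroquois proteins are homeodomain transcription factors of the TALE class, whose homeodomain carries an extra loop of amino acids. The mammalian genes lie in a pair of clusters that arose by duplication, with Irx1, Irx2 and Irx4 in one and Irx3, Irx5 and Irx6 in the other, and the cluster members sit far apart in gene-poor DNA rich in regulatory elements. In the limb, Irx3 and Irx5 are needed in early progenitors for proximal and anterior skeletal parts, and Irx1 and Irx2 are expressed in digit-forming tissue. Irx4 is best known from the ventricle of the heart and Irx6 from the retina. Fto, an RNA demethylase gene, neighbours Irx3, and its long introns hold sequences known to contact the Irx3 promoter. The mouse mutant Fused toes carries a deletion of the Irx3, Irx5 and Irx6 cluster with Fto and adjoining genes.

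The label of limb tissue was checked at promoters, defined as regions within 1 kb of a start site. Such a region was found for 68.5% of all protein-coding genes in the E10.5 list and for 62.6% in the E11.5 list, and the marker counts are given beside these shares. Of 9 limb mesenchyme markers, all carried a promoter region in the E10.5 list and 7 in the E11.5 list, where Tbx5 and Tbx4 lacked it. A promoter region alone does not mark a cell type, and genes of other cells carried one too. At E10.5 it was found for 6 of 7 ectoderm, 3 of 5 endothelium, 3 of 5 blood, 5 of 5 muscle precursor, 4 of 5 nerve and glia, 3 of 6 heart ventricle and 3 of 5 lung and gut markers. At E11.5 these counts were 4, 1, 5, 2, 2, 0 and 3. Among these lists of other cells, the endothelium, blood, heart ventricle and lung and gut lists were below the share of all genes at E10.5. At E11.5 all of them except the blood list were below it. The limb mesenchyme list was above the share at both stages. The blood markers Gata1 and Hbb-bt had a promoter region at E11.5 only, and the part of a changed cell mixture in the results below was not tested. In bulk samples, fewer cells with an open region and less open chromatin per cell cannot be told apart.

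The sequences just upstream of the start sites are shown first because the promoter regions of the 6 genes had very different signals. RefSeq promoter sequences of build GRCm38.p6, which has the mm10 coordinates, were matched for 3 of the 6 members, Irx2, Irx3 and Irx4. The 250 bases upstream of each start are given 5′ to 3′ on the strand of the gene, and capitals mark any match to the motifs described after them. The promoter of Crnde is added because that gene starts 1676 bp from Irx5 on the other strand, and the promoter of D730050B12Rik because it had a region within 1 kb in the E11.5 list only. The nearest E10.5 region, chr13:72817962-72818290 with a signal of 438, lay just beyond that distance.
Irx2, chr13:72628570-72628819, plus strand: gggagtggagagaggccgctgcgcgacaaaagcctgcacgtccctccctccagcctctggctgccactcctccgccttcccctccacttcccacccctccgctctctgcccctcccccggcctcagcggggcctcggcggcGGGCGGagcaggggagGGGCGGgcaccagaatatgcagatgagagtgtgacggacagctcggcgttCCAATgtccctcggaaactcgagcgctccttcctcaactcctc
Irx4, chr13:73260247-73260496, plus strand: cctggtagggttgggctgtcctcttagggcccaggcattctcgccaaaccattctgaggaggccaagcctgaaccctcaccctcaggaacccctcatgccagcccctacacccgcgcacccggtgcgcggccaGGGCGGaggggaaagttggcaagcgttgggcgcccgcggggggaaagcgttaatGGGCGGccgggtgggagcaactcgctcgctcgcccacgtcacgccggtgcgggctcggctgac
Irx3, chr8:91801655-91801904, minus strand: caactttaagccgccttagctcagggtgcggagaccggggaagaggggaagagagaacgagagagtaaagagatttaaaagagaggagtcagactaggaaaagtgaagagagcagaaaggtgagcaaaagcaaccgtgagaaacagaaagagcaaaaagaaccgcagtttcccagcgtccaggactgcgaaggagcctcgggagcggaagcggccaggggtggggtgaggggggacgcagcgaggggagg
Crnde, chr8:92356121-92356370, minus strand: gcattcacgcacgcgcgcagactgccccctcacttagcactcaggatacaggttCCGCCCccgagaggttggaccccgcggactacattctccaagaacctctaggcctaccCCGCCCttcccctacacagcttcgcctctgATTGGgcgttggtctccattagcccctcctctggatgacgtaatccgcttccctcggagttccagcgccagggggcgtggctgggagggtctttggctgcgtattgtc
D730050B12Rik, chr13:72816764-72817013, minus strand: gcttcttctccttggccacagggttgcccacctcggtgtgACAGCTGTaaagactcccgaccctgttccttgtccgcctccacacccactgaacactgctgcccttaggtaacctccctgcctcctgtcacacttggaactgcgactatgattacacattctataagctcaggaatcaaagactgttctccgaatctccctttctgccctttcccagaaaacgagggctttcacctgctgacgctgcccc

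GC content of the 250 bases was 68.4% for Irx2, 68.8% for Irx4, 56.0% for Irx3, 62.0% for Crnde and 54.4% for D730050B12Rik, beside a median of 55.6% over 21263 promoters of protein-coding genes (middle 50% 47.2 to 64.0%). The number of CpG dinucleotides was 19, 22, 13, 17 and 7 in the same order, beside a median of 10. A set of 5 motifs were searched on both strands, none of which is contained in another. The GC box GGGCGG was found 2 times each upstream of Irx2, Irx4 and Crnde and is present in 42.6% of all promoters of that length. The CCAAT box CCAAT was found 1 time each upstream of Irx2 and Crnde and is present in 35.4%. The TATA box TATAAA (11.6% of promoters) and the homeodomain core TAATTA (4.31%) were found in none of the 5 sequences, and Irx3 held no match to any of the motifs in this window. The palindrome ACANNTGT, which Iroquois proteins bind, was found in 5.26% of promoters and, of the 5 shown, in D730050B12Rik, 210 bases before its start. A match describes the letters and does not show a bound site.

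At E10.5 all 6 Iroquois genes carried a promoter region, and at E11.5 all except Irx4 did, 5 of 6. With lists of equal length, keeping the E10.5 regions of highest signal or −log10 p, the Irx4 region dropped out and the same 5 genes had a promoter region at both stages. Of the protein-coding genes with a located start, 68.5% carried one in the E10.5 list and 62.6% in the E11.5 list. The order of the genes by the strongest promoter region at E10.5 was Irx5, Irx3, Irx2, Irx6, Irx1 and Irx4, and at E11.5 it was Irx5, Irx2, Irx1, Irx3 and Irx6. Irx5 came first at E11.5 through a region over the Crnde start. By the region over its own start, at 1371, it came after Irx2 (3743) and beside Irx1 (1366). With no spread between replicates, it is not known which neighbours in these orders differ. The signal is the authors' value for a region and behaves as a total over its width, so wide regions score higher. It is used here to rank regions within a list, and the values of the lists are set side by side without a test.

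**Figure D1:**
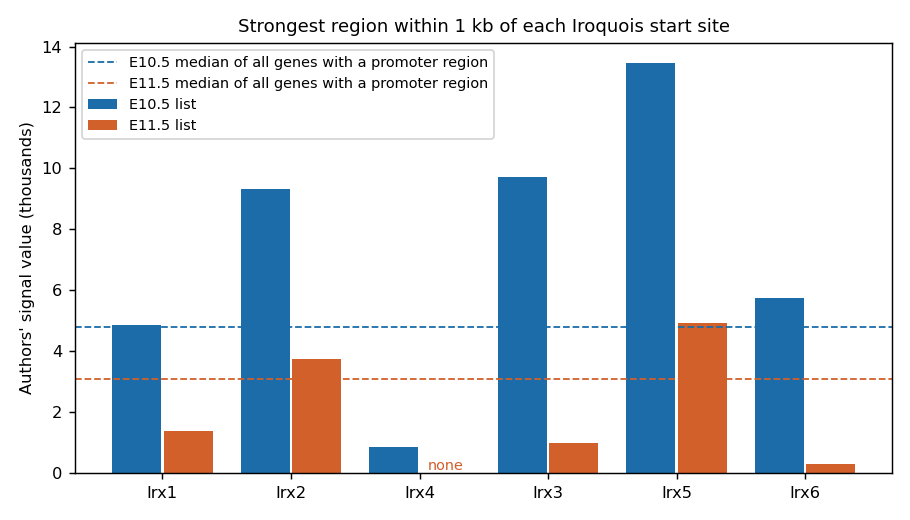
Signal of the strongest region within 1 kb of each Iroquois start site, on the vertical axis in the authors' units divided by 1000, for the E10.5 list (blue bars) and the E11.5 list (orange bars), with dashed lines at the median over all protein-coding genes that have a promoter region (4802 in the E10.5 list, 3075 in the E11.5 list). Irx2, Irx3 and Irx5 lay well above the E10.5 median, Irx2 and Irx5 lay above the E11.5 median, and Irx4 had no E11.5 region. The E11.5 bar of Irx5 is the region over the Crnde start.

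Irx5, a regulator of limb, heart and retina, had the strongest promoter region of the family. At E10.5 the region at chr8:92355552-92358660 was 3109 bp wide and covered the starts of both Irx5 and the divergent long noncoding RNA gene Crnde. Its signal of 13456 ranked 679 of 99356, within the top 0.683% of the list, and its −log10 p was 13.2. At E11.5 the same stretch held separate regions for the genes, with the Irx5 start taken as the outer gene end. The region over the Crnde start, chr8:92355566-92357179, had a signal of 4926 (rank 2922 of 37413, top 7.81%). The region over the Irx5 start, chr8:92357374-92358632, had a signal of 1371 (rank 13249, top 35.4%). Most of the E11.5 signal at this promoter pair therefore lay on the Crnde side, and the E10.5 summit, 1503 bp upstream of the Irx5 start, was on that side too.

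Irx3 had the widest promoter region of the family. At E10.5 it spanned 5429 bp at chr8:91799379-91804807, rank 193 of the list by width, and reached from inside Irx3 past the start of the divergent long noncoding RNA gene Irx3os, 1682 bp away. Its signal was 9732 (rank 2050, top 2.06%). At E11.5 there were 2 small regions in that stretch. One of 863 bp at chr8:91800947-91801809 covered the Irx3 start with a signal of 983 (rank 15916, top 42.5%), and the other of 337 bp at chr8:91801932-91802268 had a signal of 377 (top 71.3%). Neither reached within 1 kb of the Irx3os start. Among all genes with a promoter region, Irx3 stood at rank 1639 of 14756 by E10.5 signal and at rank 11775 of 13482 by E11.5 signal. Ranks from lists of different length do not measure a change.

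Irx2 had a high rank among all regions in both lists. Among genes with a promoter region it stood at rank 1887 of 14756 at E10.5 (top 12.8%) and at rank 5189 of 13482 at E11.5 (top 38.5%). At E10.5 the region at chr13:72627329-72629631 had a signal of 9312 (rank 2379, top 2.39%) and a −log10 p of 13.3, the highest of the 6 promoters. It covered the starts of Irx2 and of the divergent long noncoding RNA gene Gm20554, which are 256 bp apart. At E11.5 a region at chr13:72627960-72629625 covered the same starts with a signal of 3743 (rank 5138, top 13.7%) and a −log10 p of 8.14. The summits of these regions lay 26 and 37 bp upstream of the Irx2 start.

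Irx1, like Irx2 a gene of the developing digits, had a region over its start in both lists, with a signal of 4856 at E10.5 (chr13:71962378-71964824, rank 10137, top 10.2%). At E11.5 its region at chr13:71962638-71963973 had a signal of 1366 (rank 13283, top 35.5%). Irx6 had an E10.5 signal of 5752 (chr8:92672990-92675170, rank 7735, top 7.79%). Among genes with a promoter region, the E10.5 signals of Irx1 and Irx6 stood in the top 49.1% and 39.3%. The E11.5 region of Irx6 was 325 bp wide at chr8:92673601-92673925 and had a signal of 291 (rank 30739, top 82.2%). It did not cover the Irx6 start, which was taken as the outer gene end. Irx4 had the lowest promoter signal at E10.5, 867 (chr13:73260176-73261351, rank 48587, top 48.9%), and this region had no E11.5 overlap. Of 3 regions inside Irx4 beyond the promoter, 2 had a higher signal than the promoter at E10.5. The one at chr13:73263139-73264258 had a signal of 1556 without E11.5 overlap, and the one at chr13:73268303-73269140 had a signal of 1304 and an E11.5 counterpart of 316. The third, at chr13:73265320-73265839, had a lower signal than the promoter, 719, and an E11.5 counterpart of 220.

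The 3 genes with the highest E10.5 promoter signal, Irx5, Irx3 and Irx2, were also the 3 members with a long noncoding RNA starting on the other strand within 2 kb upstream. Over all protein-coding genes, 4.22% have such a partner. This match holds for the signal summed over the width of a region. By −log10 p Irx6 (9.83) came before Irx3 (9.58), and by signal per bp Irx6 (2.64) and Irx1 (1.98) came before Irx3 (1.79), whose region spans both starts. Since a region can cover both starts, the signal of these promoters cannot be assigned to the Iroquois gene alone.

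The Irx3, Irx5 and Irx6 cluster held more E10.5 regions than the other, and a similar number at E11.5. Within its windows, which join to 1316 kb because those of Irx5 and Irx6 overlap, the E10.5 list had 117 regions and the E11.5 list 22, which is 5.32 E10.5 regions for each E11.5 region. The Irx1, Irx2 and Irx4 windows of 1500 kb held 64 and 25, a ratio of 2.56. The ratio over the whole lists was 2.66. Per 100 kb, the chromosome 8 cluster held 8.89 E10.5 regions and the chromosome 13 cluster 4.27, while both held 1.67 E11.5 regions. The similar E11.5 numbers depended on the settings. With a −log10 p of 5 or more the chromosome 8 cluster held 7 E11.5 regions and the chromosome 13 cluster 15, and in windows of 100 kb they held 7 and 13.

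**Figure D2:**
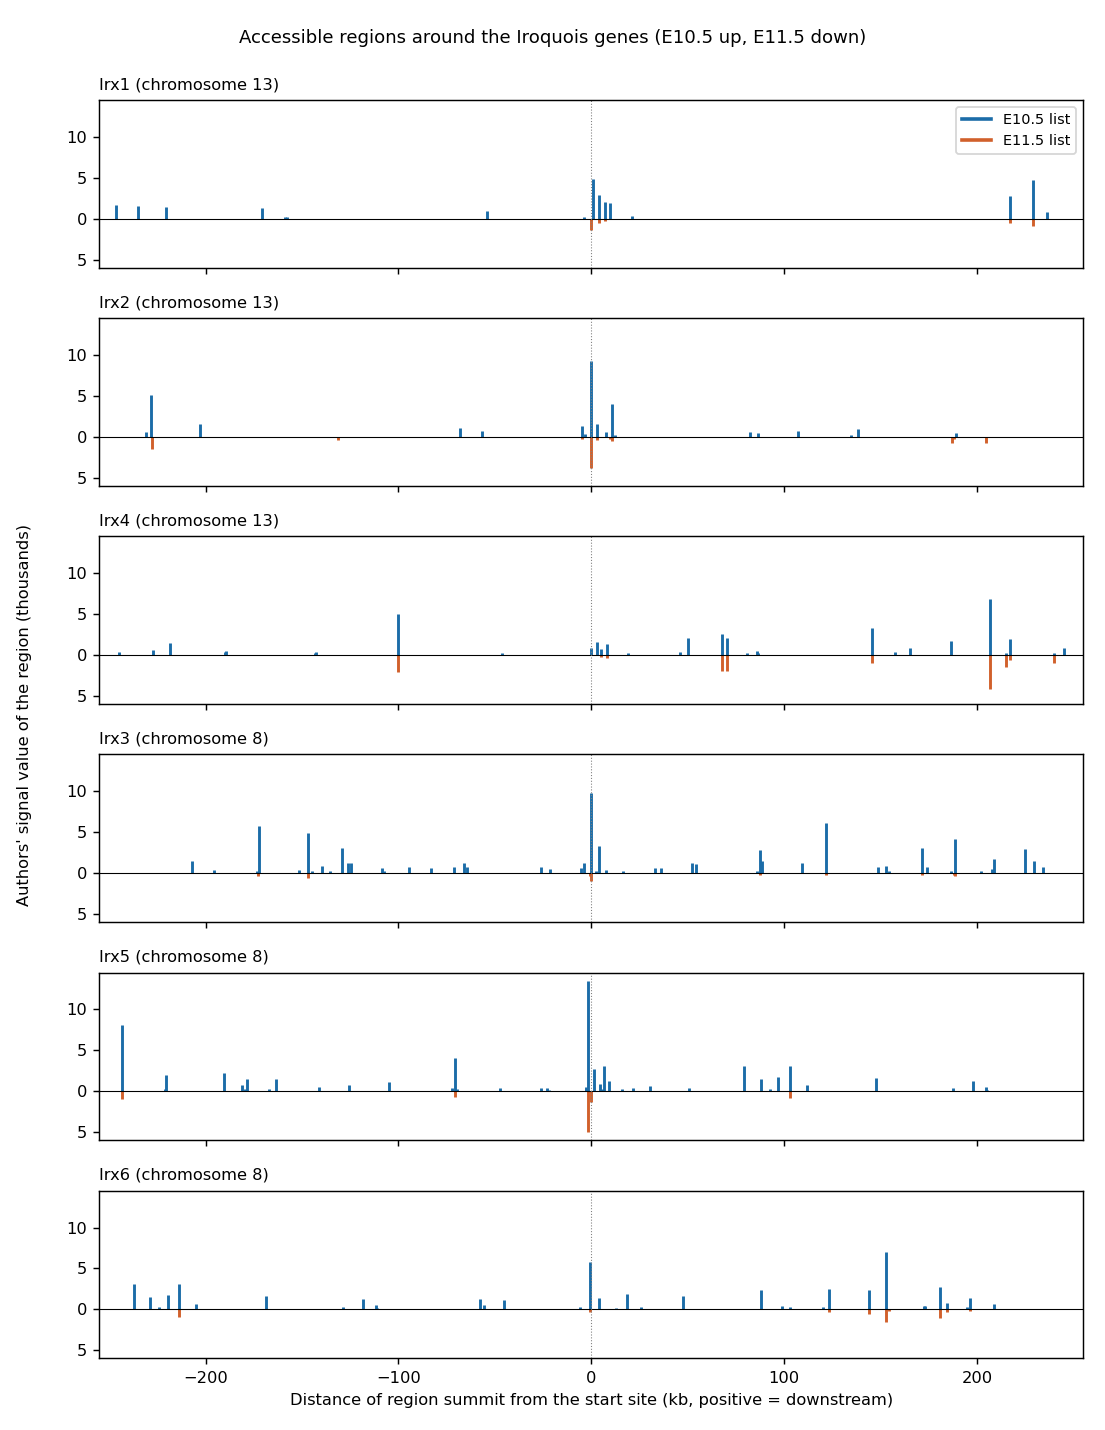
Regions within 250 kb of each Iroquois start site, by distance of the summit in kb (horizontal axis, positive downstream along the gene) and by the authors' signal divided by 1000 (vertical axis), with the E10.5 list drawn upward in blue and the E11.5 list downward in orange. The Irx3 and Irx5 panels are filled with 50 and 43 E10.5 regions and only 9 and 5 E11.5 regions, and the Irx1 panel shows 16 and 5, gathered at the gene and towards the ends of the window.

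By gene, the E10.5 windows held 50 regions for Irx3, 43 for Irx5, 35 for Irx6, 30 for Irx4, 18 for Irx2 and 16 for Irx1. The windows of Irx5 and Irx6 count some of the same regions. Among the windows of all 21536 protein-coding genes the median was 26 regions (middle 50% 13 to 41). Irx3 exceeded 85.2% of these windows and Irx5 76.9%, while Irx1 exceeded 29.5%. At E11.5 the windows held 10 regions each for Irx2 and Irx4, 9 each for Irx3 and Irx6, and 5 each for Irx1 and Irx5. The median over all genes was 11 (middle 50% 6 to 18), so all 6 Iroquois genes were below it. The windows of Irx1, Irx2, Irx3 and Irx5 hold no protein-coding start other than that of the member, and those of Irx4 and Irx6 hold 4 each, the member included.

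**Figure D3:**
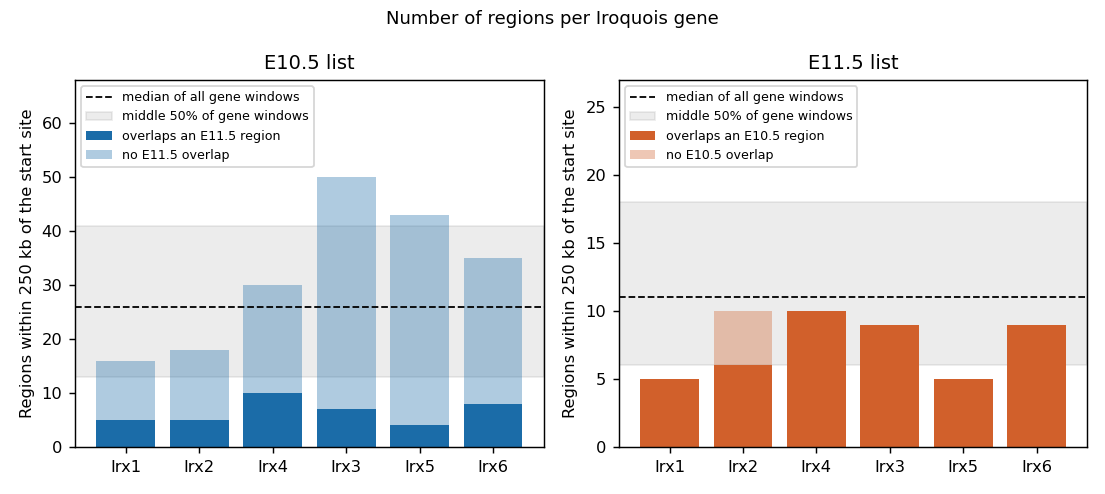
Number of regions within 250 kb of each Iroquois start site in the E10.5 list (left) and the E11.5 list (right), with full colour for regions that overlap the other list and pale colour for those that do not. The dashed line and grey band give the median and middle 50% of the windows of all protein-coding genes (26 and 11 regions). Irx3 and Irx5 lie above the E10.5 band while all 6 genes lie below the E11.5 median, and Irx2 alone has pale E11.5 regions.

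Few E10.5 regions of the chromosome 8 cluster had an E11.5 counterpart. An overlap of 1 bp or more with the E11.5 list was found for 18 of its 117 regions, or 15.4% (95% Wilson interval 9.96 to 23.0%, for counting error only and treating neighbours as independent). In the chromosome 13 cluster 20 of 64 did, 31.2% (21.2 to 43.4%). Over the whole E10.5 list the share was 32.3%. Among windows of all genes with at least 10 E10.5 regions, the median share was 40.0% (middle 50% 28.9 to 52.6%). The Irx5 window had 4 of 43 (9.30%), above only 0.877% of these windows, and the Irx3 window had 7 of 50 (14.0%), above 2.84%. The windows were not matched for gene starts, and those of Irx3 and Irx5 hold 1 protein-coding start each. Of all E10.5 regions over 1 kb from any gene start, 21.9% were shared. The shares were 22.9% for Irx6, 27.8% for Irx2, 31.2% for Irx1 and 33.3% for Irx4.

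The lower share on chromosome 8 was also seen away from promoters. Among regions over 1 kb from any gene start, 21.9% of the whole E10.5 list overlapped an E11.5 region. In the chromosome 8 cluster 12 of 107 such regions did (11.2%), and in the chromosome 13 cluster 15 of 56 (26.8%). The shares of all regions, promoters included, were then split by signal. In the top 10% of E10.5 signal, where 96.7% of all regions were shared, the chromosome 8 cluster had 7 of 7 shared and the chromosome 13 cluster 4 of 4. Between the list median of 838 and the top 10%, where 47.3% were shared, the counts were 10 of 46 (21.7%) for chromosome 8 and 13 of 30 (43.3%) for chromosome 13. Below the median, where 7.39% were shared, they were 1 of 64 (1.56%) and 3 of 30. The share on chromosome 8 was below that of the list in the middle and lower classes, and every region of the top class was shared. The classes were not matched for promoters, and regions away from gene starts were not split by signal.

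**Figure D4:**
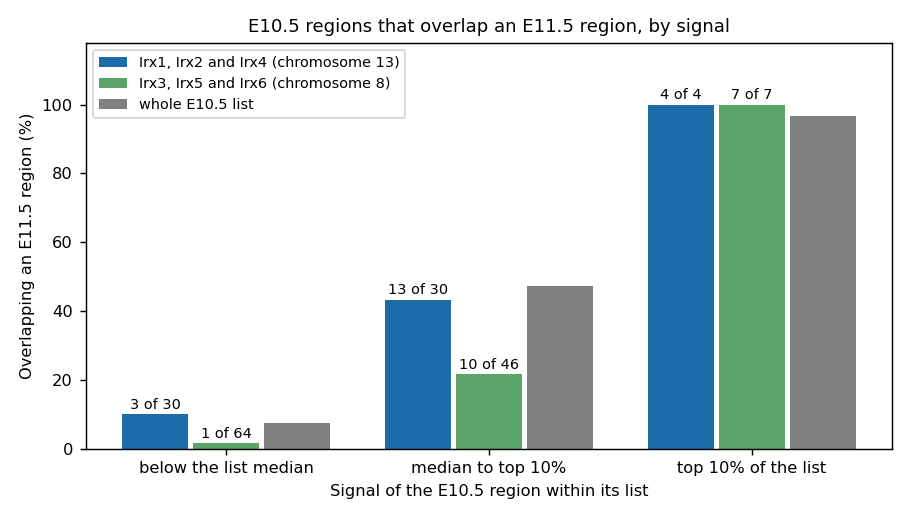
Percent of E10.5 regions that overlap an E11.5 region (vertical axis) in 3 classes of signal within the E10.5 list (horizontal axis), for the Irx1, Irx2 and Irx4 cluster (blue), the Irx3, Irx5 and Irx6 cluster (green) and the whole E10.5 list (grey), with counts above the cluster bars. In the middle class 10 of 46 chromosome 8 regions are shared beside 47.3% of the list, and in the top class all 7 are.

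Where regions of the chromosome 8 cluster were shared, their E11.5 signal was small beside their E10.5 signal. The ratio of the summed E11.5 signal to the E10.5 signal had a median of 0.135 over its 18 shared regions, with a range of 0.0388 to 0.468. The median was 0.287 over the 20 of chromosome 13 and 0.404 over all 32087 shared regions (middle 50% 0.216 to 0.668). These sets were not matched for promoters. Regions over 1 kb from any gene start made up 12 of the 18, 15 of the 20 and 17652 of the 32087. The authors' scaling between the lists is not given in the sources used here, so a ratio is read only beside that of the whole list. Of the 22 E11.5 regions in the chromosome 8 cluster, 15 had a signal below the E11.5 list median of 722. On chromosome 13, 13 of 25 did.

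The strongest distal regions of the chromosome 8 cluster lay far from the genes. The highest, at chr8:92113467-92115847 between Irx3 and Irx5 and 243 kb upstream of Irx5, had an E10.5 signal of 8130 (rank 3520, top 3.54%) and an E11.5 counterpart of 943. A region at chr8:91679008-91680690, between Fto and Irx3 and 122 kb downstream of the Irx3 start, had 6184 at E10.5 (rank 6707) and 240 at E11.5. Upstream of Irx3, a region at chr8:91973204-91974583 in LOC115486949, a long noncoding RNA gene, had 5770 and 328, and one at chr8:91948088-91949646 between genes had 4910 and 600. The Mmp2 promoter, of a gene for a matrix-degrading enzyme, had the rank 4 in the cluster at E10.5 (chr8:92826776-92828821, 7031). At E11.5 it had the rank 2, with 1504 at chr8:92827025-92828226, and the promoter of Lpcat2, a phospholipid acyltransferase gene, had 1014.

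The remaining E11.5 regions among the 8 strongest of this cluster were distal. The E11.5 counterpart of the region 243 kb upstream of Irx5 had 943, a region at chr8:92460229-92461278, 103 kb downstream of Irx5, had 880, and one at chr8:92286786-92287385, 70.8 kb upstream of Irx5, had 653. Their E10.5 signals were 8130, 3138 and 4024. Between Irx5 and Irx6, which lie 316 kb apart, there were 24 E10.5 regions outside the promoters and 1 at E11.5. Between Irx3 and Irx5, 556 kb apart, there were 46 and 4. On chromosome 13 there were 20 and 6 between Irx1 and Irx2, and 23 and 8 between Irx2 and Irx4. The whole lists held 2.66 E10.5 regions for each E11.5 region. Shared E10.5 regions were 1 of 24 and 4 of 46 on chromosome 8, and 5 of 20 and 3 of 23 on chromosome 13. The share was 32.3% over the whole E10.5 list and 21.9% over 1 kb from any gene start.

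Of the 3 strongest chromosome 8 regions without E11.5 overlap, 1 lay close to Irx3 and 1 close to Irx5. The region at chr8:91797241-91798424, 3.97 kb downstream of the Irx3 start and at the start of the long noncoding RNA gene Gm39222, had a signal of 3323 (top 16.7%). A region at chr8:91930300-91931256, 129 kb upstream of Irx3, had 3094, and one at chr8:92364010-92366438, 6.86 kb downstream of the Irx5 start, had 3093. Every E11.5 region of the cluster, 22 of 22, overlapped an E10.5 region, beside 91.8% of the whole E11.5 list. With 0 of 22 lacking one, the limit on such a share is 13.6%. Over 1 kb from any gene start the counts were 14 of 14 here and 16 of 18 on chromosome 13, beside 87.5% of the list. These counts rest on an overlap of 1 bp. With a reciprocal overlap of 50%, 27.3% of the E11.5 regions of the chromosome 8 cluster were shared, beside 53.8% of the list. With summits within 100 bp, 72.7% were, beside 70.6% of the list.

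Inside Fto, most E10.5 regions had no E11.5 counterpart, while its start was open in both lists. The gene spans 355 kb at chr8:91313367-91668433 and its start lies 488 kb from that of Irx3. Beyond the promoter region, the gene held 33 E10.5 regions, of which 2 overlapped an E11.5 region (6.06%, beside 21.9% of the list away from gene starts), and 3 E11.5 regions. These shares were not matched for signal. The median E10.5 signal in the gene, promoter included, was 734, beside 838 over the list. The region at the Fto start is shared with Rpgrip1l, a cilium gene on the other strand. It had a signal of 7675 at E10.5 (rank 4086, top 4.11%) and 4736 at E11.5 (rank 3217, top 8.60%). Of the Fto regions, 13 of the E10.5 list and 3 of the E11.5 list lay in the Irx3 window and were already counted in the cluster. The strongest of these, at chr8:91612373-91614144 and 189 kb downstream of Irx3, had 4190 at E10.5 and was met by E11.5 regions of 288 and 244. The only other Fto region of the window with an E11.5 counterpart was 172 kb from Irx3, with 3045 and 244, and a region of 2975 at chr8:91575553-91577309 had none.

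In the chromosome 13 cluster, the strongest regions at both stages were the Irx2 promoter and the promoter of Lpcat1, a phospholipid acyltransferase gene 207 kb downstream of Irx4. The Lpcat1 promoter had 6862 at E10.5 (chr13:73466545-73468354, rank 5354) and 4189 at E11.5 (rank 4176, top 11.2%), the highest E11.5 value of the cluster. A pair of distal regions followed at E10.5. The one at chr13:72400252-72401447, 228 kb upstream of Irx2 and between genes, had an E10.5 signal of 5167 and an E11.5 signal of 1492. The other, at chr13:73159489-73160857, 100 kb upstream of Irx4, had signals of 5070 and 2095. Both were in the top 10% of the E10.5 list.

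Around Irx1 the open chromatin lay at the gene and at the far ends of its window. A region 229 kb downstream of the start in the long noncoding RNA gene Gm40999 (chr13:71733853-71735132) had an E10.5 signal of 4766 and an E11.5 signal of 912, and its neighbour at 217 kb had 2835 and 526. In the body of Irx1, 4.09 kb from the start, a region had 2878 and 486. Downstream of Irx2, a region of 2563 bp at chr13:72638183-72640745 had 4060 at E10.5 and was met by E11.5 regions of 240 and 490. A distal region 145 kb downstream of Irx4 (chr13:73405609-73406496) had 3358 and 999. The E11.5 promoters of Mrpl36 (1995) and Ndufs6 (1894), genes of mitochondrial proteins, had the ranks 4 and 5 in the cluster. Of the E10.5 regions without overlap the strongest were at chr13:73310106-73311215 (2027), at chr13:71953523-71954529 (1976), 9.66 kb downstream of the Irx1 start, and at chr13:73446358-73447276 (1744).

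The chromosome 13 cluster held 4 E11.5 regions without E10.5 overlap, and all 4 lay in the Irx2 window. Of the 25 E11.5 regions of the cluster, 21 were shared (84%, Wilson interval 65.3 to 93.6%, for counting error only). The share of the whole E11.5 list, 91.8%, lies within this interval. At the D730050B12Rik promoter, whose sequence is printed above, a region at chr13:72815966-72816480 had a signal of 711 (rank 18875, top 50.5%) and a second at chr13:72816872-72817239 had 234. Another region, at chr13:72833346-72834008 between genes and 205 kb downstream of Irx2, had 768 (rank 18102), and the last, 131 kb upstream of Irx2 at chr13:72497566-72497946, had 354. The Irx2 window thus had 6 of 10 E11.5 regions shared (60.0%, Wilson interval 31.3 to 83.2%). This share was above that of 1.64% of the windows with at least 5 E11.5 regions, whose median was 100%. In windows of 100 kb, all 13 E11.5 regions of the cluster were shared. Whether the difference between clusters exceeds the spread between embryos was not tested, as there is no value per replicate.

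Another pair of regions in this cluster had a higher signal in the E11.5 list. They lie in Lpcat1, 215 and 240 kb downstream of Irx4, with 261 and 253 at E10.5 (chr13:73475180-73475811 and chr13:73500181-73500569) and 1472 and 985 at E11.5. Of the shared E10.5 regions of the chromosome 13 cluster these 2 of 20 had the higher value at E11.5, as did 0 of 18 on chromosome 8 and 8.59% of all shared regions.

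Promoters of genes related to the family were examined by the same rule, beside the shares of 68.5% and 62.6% over all protein-coding genes. All 12 TALE homeobox genes outside the Iroquois family had a promoter region at both stages, among them Meis1 with signals of 10725 and 2593 and Tgif1 with 23315 and 11064. Meis genes mark the proximal limb, and Tgif1 is a repressor of transforming growth factor signalling. Of 10 genes that act with Irx3 and Irx5 in limb patterning, all had a promoter region in the E10.5 list and 8 in the E11.5 list. Gli3, a mediator of Hedgehog signalling, had 15970 and 10604, while the limb-type genes Tbx5 and Pitx1 had E10.5 signals of 1769 and 7629 but no E11.5 region. All 9 genes flanking the clusters had a promoter region in the E10.5 list and 8 had one in the E11.5 list, which lacked it for the protease gene Adamts16 (713 at E10.5).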

How the data were processed

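ATAC-seq peak lists of wild-type limb cells were analysed, 1 list per stage. Per the file headers they are narrowPeak files on mm10. Per the submitters' processing notes, cutadapt, Bowtie2, SAMtools, deepTools and Genrich were used, with no version, role or order. How replicates were joined, any Tn5 shift and the depth per sample are not given in the sources used here. The deposited signal value of a peak grows with its width, and 200 is just below the lowest. The deposited −log10 p is given per peak. Whether it refers to the whole peak or to its summit was not determined here. The deposited score repeats signal divided by width, and the q-value column holds no values, so neither was used.

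Start sites came from the RefSeq promoter table (GRCm38.p6) for 17492 of 21536 protein-coding genes and otherwise from the outer gene end, with strand by symbol from GENCODE M1, whose NCBIM37 coordinates were not used. The promoter table gave the starts of Irx2, Irx3 and Irx4, while those of Irx1, Irx5 and Irx6 are outer gene ends. Exons and introns in mm10 were not used here. Overlap required 1 bp. Counting was checked on simulated lists. Python 3.11.15, pandas 2.3.3 and scipy 1.17.1 were used. Alternatives were stricter −log10 p, lists of equal number, other windows, other overlaps and other promoter distances. Named regions are all promoter regions, the 8 strongest per cluster and stage, all E11.5 regions without overlap and the 3 strongest E10.5 regions without overlap, with others of the members chosen after their values were seen. The members and lists were chosen with earlier results of these data known.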

Additional observations from a re-analysis of the deposited data

How the results depend on the processing

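No paired analysis was possible because the replicates of a stage are joined in 1 list, which also left no replicate to omit. Over 11 alternatives and 10 results, 51 values stayed within 1.5 times the reported count and 25 did not. Counts are given for the Irx1, Irx2 and Irx4 cluster first and the Irx3, Irx5 and Irx6 cluster second. A −log10 p of 5 or more left 36 and 60 regions at E10.5, with 11 and 6 shared, and 15 and 7 at E11.5, with 11 and 7 shared, by construction fewer. At that threshold 32.4% of the whole E10.5 list and 94.2% of the whole E11.5 list were shared. With the E10.5 list reduced to the E11.5 number, the E10.5 regions were 26 and 39 by signal and 20 and 34 by −log10 p. The shared percentages of E10.5 regions were then 65.4 and 43.6 by signal and 75 and 50 by −log10 p, beside 68.9 and 70.2 for the whole list. Windows of 100 kb held 32 and 56 E10.5 regions, with 12 and 5 shared, and 13 and 7 E11.5 regions, with 13 and 7 shared. Windows of 500 kb held 103 E10.5 regions for the first cluster. A reciprocal overlap of 50% left 12 and 6 shared E10.5 regions and 12 and 6 shared E11.5 regions. These are 18.75% and 5.13% at E10.5, beside 20.3% of the whole list, and 48.0% and 27.3% at E11.5, beside 53.8%. By this rule the E11.5 share on chromosome 8 was below that of the list. By summits within 100 bp it was 72.7%, beside 70.6% of the list. With lists of equal number it was 95.5%, beside 75.3% of the list by signal and 76.4% by −log10 p. The E10.5 share was lower on chromosome 8 than on chromosome 13 under each alternative run. The outer gene end as start site and the removal of other protein-coding promoters were chosen after seeing the data and moved no count past 1.5 times. The Irx4 promoter was absent at E10.5 with the stricter threshold and at equal number, and that of Irx6 was absent at E11.5 with the stricter threshold. The unknown depth limits every count.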

Other observations

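The distances of regions from the start sites are given by gene. The same counts over the windows of all genes were not made, so they are described only. Around Irx5, 8 of 43 E10.5 regions had their summit within 10 kb of the start site, and around Irx3, 6 of 50 did. Irx1 had 5 of 16, Irx2 5 of 18, Irx4 4 of 30 and Irx6 3 of 35 within 10 kb. Of the Irx1 regions, 9 lay over 150 kb away. At E11.5 no region of Irx1, Irx3, Irx4, Irx5 or Irx6 lay between 10 and 50 kb from the start, and Irx2 had 1 there. The E11.5 windows held only 5 to 10 regions each, so an empty distance class says little.

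Measured to the near edge of a region, the border of 250 kb fell close to some. The E10.5 region nearest inside the border was 242 kb from the Irx5 start, with a signal of 8130, and the nearest outside was 259 kb away, with 1302. That outer region lies in the Irx6 window and was counted in the cluster. For Irx4 a region of signal 555 lay outside at 251 kb and one of 862 inside at 245 kb. For Irx2 a region of 3355 lay outside at 262 kb.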
